A study of Mus musculus with 16 samples.

Results

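Lyn, the Src family kinases Fyn, Fgr, Lck, Src, Yes1 and Blk and the kinase Syk are 8 of the 22911 genes that could be named among the probes, and they were grouped because the study followed Lyn as a partner of STING in dendritic cells. Each gene was read from the probes matched to its transcripts, 12 probes in all: 4 genes had 1 probe and 4 had 2, and a gene is given by its probe with the highest mean signal. Kidney RNA of 16 mice, each 6 months old, was hybridised to one-color arrays, 1 mouse per array and 4 mice per genotype. The wild-type and the Sting gt/gt mice were C57BL/6. The Fcgr2b-/- mice, labelled Fcgr2b-ko or lupus mouse, and the double-deficient Fcgr2b-/-.Sting gt/gt mice were 129/C57BL/6, so genotype at Fcgr2b and strain cannot be told apart in any comparison of an Fcgr2b-deficient group with a C57BL/6 group. The Fcgr2b deletion takes away an inhibitory Fc receptor, and the goldenticket (gt) allele of Sting is a point mutation that acts as a functional knockout of STING, an adaptor upstream of type I interferon. The study's legend for its kidney array data gives the lupus animals as Fcgr2b-/-.Sting wt/gt, so they may have carried 1 gt allele, while the sample labels name no Sting allele for them. The arrays were on 2 slides, the first with 2 wild-type, 3 Fcgr2b-/-, 1 double-deficient and 2 Sting gt/gt mice and the second with 2, 1, 3 and 2, so slide is uneven between Fcgr2b-/- and double-deficient mice. Per the study's methods the wild-type mice were purchased, and the Fcgr2b-deficient and Sting-deficient lines came from other laboratories. These lines were crossed to give the double-deficient mice and littermate controls.

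Src family kinases are tyrosine kinases that sit under the plasma membrane and start signaling from receptors that have no kinase of their own. They phosphorylate the tyrosines of ITAMs, short motifs in the chains of B-cell, T-cell and Fc receptors, and the phosphorylated ITAM recruits Syk, which carries the signal on to adaptors and phospholipase C. They also phosphorylate ITIMs, the inhibitory counterpart found in receptors such as Fcgr2b, which recruit phosphatases that end the signal. Lyn serves both arms in B cells and myeloid cells, Fgr is mostly a myeloid kinase, Lck belongs to T cells and Blk to B cells, while Src, Fyn and Yes1 are made in many tissues.

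All levels are log2 of the processed signal minus the 75th percentile of the same array, so that 0 is the brightness of the 75th percentile, and levels of different genes are not compared because each probe has its own brightness. Of the 8 members, 7 passed the filter, which asked that 4 or more of the 16 arrays read the probe well above background. Blk did not and was not tested. A difference was called at an adjusted p under 0.05 in limma together with a change of at least 2-fold.

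As a check of the animals, Fcgr2b stood between 1.14 and 2.13 in the wild-type mice, between 0.02 and 0.70 in the Fcgr2b-/- mice, between -0.40 and 0.50 in the double-deficient mice and between -0.19 and 1.54 in Sting gt/gt mice, of which replicate 4 lay within the range of the deficient groups. Where its probe lies against the deleted part is not given in the sources used here, and an array cannot read the gt mutation. Among all arrays, Fcgr2b-/- replicate 1 and Sting gt/gt replicate 4 stood farthest from the rest, with a mean correlation to the other arrays of 0.912 and 0.920, against 0.940 to 0.965 for the other 14. Kidney epithelium markers were bright on every array, with a mean level of the 10 genes between 4.18 and 5.5.

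The RefSeq promoter table (GRCm38.p6) held windows for 6 of the 8 members, 8 windows in all, each with 250 bases before and 50 bases after a transcript start. Lyn and Blk had none. The 4 windows that held the letters GGAAGT (or their reverse complement ACTTCC) are printed first, with these letters in capitals. ETS factors of blood cells bind this core. The order is Fgr, both Lck starts and the second Syk start. The first Syk window, which lacked the letters, is not printed. The letters were chosen after the windows had been read, and the windows were picked by holding them, so the printed sets cannot relate motif to level.
Fgr, chr4:132973845-132974144, plus strand: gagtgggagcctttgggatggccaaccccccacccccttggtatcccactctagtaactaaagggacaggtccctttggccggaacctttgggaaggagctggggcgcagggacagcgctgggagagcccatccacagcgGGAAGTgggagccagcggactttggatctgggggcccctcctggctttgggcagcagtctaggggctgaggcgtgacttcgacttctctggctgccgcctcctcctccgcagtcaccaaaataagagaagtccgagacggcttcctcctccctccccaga
Lck, chr4:129573592-129573891, minus strand: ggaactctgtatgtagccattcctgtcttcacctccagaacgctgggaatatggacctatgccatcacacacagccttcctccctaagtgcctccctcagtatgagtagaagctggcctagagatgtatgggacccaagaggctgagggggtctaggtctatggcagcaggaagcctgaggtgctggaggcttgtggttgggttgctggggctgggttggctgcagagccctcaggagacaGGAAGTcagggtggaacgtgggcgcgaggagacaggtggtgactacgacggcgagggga
Lck, chr4:129558323-129558622, minus strand: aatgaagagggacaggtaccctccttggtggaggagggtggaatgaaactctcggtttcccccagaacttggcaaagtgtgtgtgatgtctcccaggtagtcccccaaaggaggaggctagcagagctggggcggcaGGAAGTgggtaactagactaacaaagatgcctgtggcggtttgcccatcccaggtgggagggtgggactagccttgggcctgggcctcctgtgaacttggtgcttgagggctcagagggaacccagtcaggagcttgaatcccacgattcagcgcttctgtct
Syk, chr13:52596632-52596931, plus strand: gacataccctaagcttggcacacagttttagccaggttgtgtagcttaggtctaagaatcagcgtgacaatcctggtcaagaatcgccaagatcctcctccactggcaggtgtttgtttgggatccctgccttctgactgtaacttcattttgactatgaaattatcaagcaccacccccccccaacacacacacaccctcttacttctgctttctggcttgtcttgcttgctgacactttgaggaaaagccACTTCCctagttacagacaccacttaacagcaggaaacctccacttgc
The windows of Src and Yes1, whose group means differed least among the members tested, follow with the GC box GGGCGG (reverse complement CCGCCC) in capitals. This motif is common in promoters that are active in most cell types. The Fyn window, which also held it, is not printed.
Src, chr2:157424043-157424342, plus strand: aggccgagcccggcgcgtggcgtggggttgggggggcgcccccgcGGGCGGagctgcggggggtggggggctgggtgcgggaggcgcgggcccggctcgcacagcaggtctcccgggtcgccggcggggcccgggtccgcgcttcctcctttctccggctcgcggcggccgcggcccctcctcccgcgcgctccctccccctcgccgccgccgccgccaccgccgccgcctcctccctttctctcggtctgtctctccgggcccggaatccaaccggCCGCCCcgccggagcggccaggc
Yes1, chr5:32610921-32611220, plus strand: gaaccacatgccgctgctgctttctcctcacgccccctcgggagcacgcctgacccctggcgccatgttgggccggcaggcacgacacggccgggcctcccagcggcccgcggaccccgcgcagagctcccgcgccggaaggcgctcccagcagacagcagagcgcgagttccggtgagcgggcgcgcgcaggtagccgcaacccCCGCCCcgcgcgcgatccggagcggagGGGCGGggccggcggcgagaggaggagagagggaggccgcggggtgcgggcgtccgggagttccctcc

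GGAAGT on either strand occurred in 4 of the 8 member windows, the 4 printed first, and in 23.8% of the 32851 windows of the table. GGGCGG occurred in 4 of the 8, those of Fyn, Src and Yes1 and the Lck window at chr4:129558323-129558622, and in 35.7% of all windows. In the Lck window that held both, they did not overlap. The gamma-activated site of STAT factors, TTCNNNGAA, which is its own reverse complement, occurred in 0 of the 8 and in 8.30% of all windows. The Src window was 82.3% G and C, the Yes1 window 77.0% and the Fyn window 69%. The share was 62.7% for Fgr, 57.3% and 58.3% for the Lck windows and 48.0% for the second Syk window, with a median of 52.7% over the table. The first Syk window, at 72.0%, held none of the motifs. A match to letters is a description of the sequence and no evidence of binding.

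Lyn was well above background in all 16 mice. It stood at 3.17, 2.05, 2.16 and 2.19 in the wild-type mice and at 4.63, 2.71, 2.29 and 3.87 in the Fcgr2b-/- mice. It stood at 2.59, 3.09, 2.40 and 2.06 in the double-deficient mice and at 3.31, 2.33, 2.31 and 2.23 in Sting gt/gt mice. The highest levels belonged to Fcgr2b-/- replicates 1 and 4, 1 mouse of each C57BL/6 group lay well above its group, and the ranges of all 4 genotypes overlapped. The means were 2.39 ± 0.52 (SD, n = 4) in wild-type, 3.38 ± 1.07 in Fcgr2b-/-, 2.54 ± 0.43 in double-deficient and 2.54 ± 0.51 in Sting gt/gt mice. In that order the lowest 3 means lay within 0.15 of each other, less than the spread within any of the groups.

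Lyn averaged 0.98 (SE 0.46) higher in Fcgr2b-/- than in wild-type mice, 1.97-fold, with an interval of 0.01 to 1.95, and the limma adjusted p over all probes was 0.9996. It averaged 0.84 (SE 0.46) lower in double-deficient than in Fcgr2b-/- mice, with an interval of -1.81 to 0.14 and a limma adjusted p of 0.9999. Double-deficient and wild-type mice differed by 0.14 (interval -0.83 to 1.12), and Sting gt/gt and wild-type mice by 0.15 (interval -0.83 to 1.12). The interaction asks whether the Sting mutation has a different effect with and without Fcgr2b, where strain changes together with Fcgr2b. It was -0.99 (SE 0.65, interval -2.36 to 0.39, limma adjusted p 0.663). None of these was called, and each interval reaches past a 2-fold change. Without Fcgr2b-/- replicate 1 the difference of Fcgr2b-/- from wild-type mice was 0.56, that of double-deficient from Fcgr2b-/- mice -0.42 and the interaction -0.57, and without replicate 3 the first was 1.34. Within the first slide Fcgr2b-/- and wild-type mice differed by 1.13, and within the second, with 1 Fcgr2b-/- mouse, by 0.11. Double-deficient and Fcgr2b-/- mice differed by -1.14 within the first slide, with 1 double-deficient mouse, and by 0.23 within the second, so the direction turned.

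**Figure D1:**
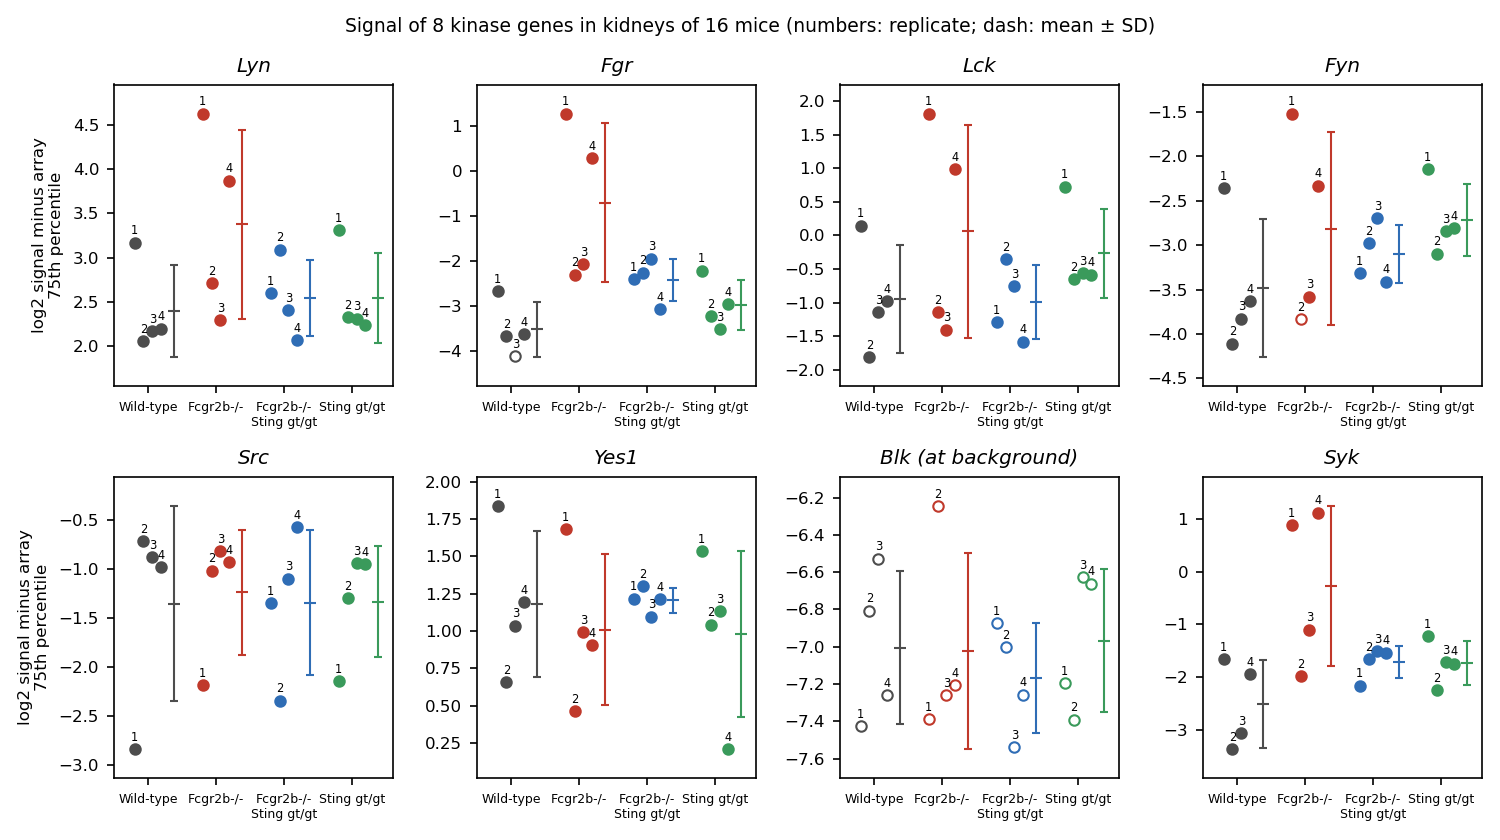
Levels of the 8 kinase genes in each kidney (vertical axis, log2 signal minus the array's 75th percentile) by genotype, 4 mice each, numbered by replicate. Filled points were well above background, open points were not, and the dashes with bars are mean ± SD. Fgr and Syk reached their highest levels in Fcgr2b-/- replicates 1 and 4, and every Blk point is open.

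Fgr showed the widest separation among the members. It stood at -2.66, -3.67, -4.11 and -3.62 in wild-type mice and at 1.28, -2.30, -2.06 and 0.29 in Fcgr2b-/- mice. It stood at -2.40, -2.25, -1.95 and -3.06 in double-deficient mice and at -2.21, -3.22, -3.52 and -2.95 in Sting gt/gt mice. Every Fcgr2b-/- mouse was above every wild-type mouse, while the double-deficient mice overlapped both. Wild-type replicate 3 was not well above background.

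Fgr averaged 2.81 (SE 0.65) higher in Fcgr2b-/- than in wild-type mice, 7.03-fold, with an interval of 1.43 to 4.20. Its limma adjusted p was 0.342, so it was not called, and the exact two-sided Mann-Whitney test, the study's stated test, gave 0.0286 without adjustment, the smallest value that 4 against 4 allows. It averaged 1.72 lower in double-deficient than in Fcgr2b-/- mice (SE 0.65, interval -3.10 to -0.34, limma adjusted p 0.9999), 1.1 higher in double-deficient than in wild-type mice (interval -0.28 to 2.48) and 0.54 higher in Sting gt/gt than in wild-type mice (interval -0.84 to 1.92). The interaction was -2.26 (SE 0.92, interval -4.21 to -0.30, limma adjusted p 0.661). The second Fgr probe gave 2.71 for Fcgr2b-/- against wild-type, also with groups that did not overlap, and 1.31 for double-deficient against wild-type, where its groups did not overlap either, as for 0.547% of all probes. It was well above background in 4 of 4 Fcgr2b-/- and 1 of 4 wild-type mice. With normexp background correction the difference between Fcgr2b-/- and wild-type was 1.77 in place of 2.81. It was 2.92 within the first slide and 1.80 within the second. The difference between double-deficient and Fcgr2b-/- mice was -2.16 within the first slide and -0.36 within the second, and -1.06 without Fcgr2b-/- replicate 1.

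Lck, the T-cell kinase, stood at 0.15, -1.81, -1.14 and -0.98 in wild-type mice and at 1.81, -1.14, -1.40 and 0.99 in Fcgr2b-/- mice. It stood at -1.29, -0.35, -0.75 and -1.58 in double-deficient mice and at 0.73, -0.65, -0.56 and -0.59 in Sting gt/gt mice. Replicate 1 was the highest mouse of 3 genotypes, and Fcgr2b-/- replicates 2 and 3 lay within the wild-type range. Lck averaged 1.01 higher in Fcgr2b-/- than in wild-type mice (SE 0.64, interval -0.36 to 2.37) and 1.06 lower in double-deficient than in Fcgr2b-/- mice (SE 0.64, interval -2.42 to 0.31), neither of them called. Without Fcgr2b-/- replicate 1 these were 0.43 and -0.48. They were 1.39 and -1.85 within the first slide and -0.35 and 0.51 within the second, where both turned. Its second, dimmer probe, well above background in 2 of 4 mice of each genotype, gave 0.79 and -0.82.

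Fyn, made in many cell types and in T cells, stood at -2.35, -4.11, -3.83 and -3.63 in wild-type mice and at -1.52, -3.83, -3.58 and -2.33 in Fcgr2b-/- mice. It stood at -3.32, -2.98, -2.70 and -3.41 in double-deficient mice and at -2.14, -3.09, -2.84 and -2.81 in Sting gt/gt mice. The ranges of all genotypes overlapped, and Fcgr2b-/- replicate 2 was not well above background. Fcgr2b-/- mice averaged 0.67 above wild-type mice (SE 0.48, interval -0.35 to 1.68) and Sting gt/gt mice 0.76 above them (SE 0.48, interval -0.26 to 1.78), and neither difference was called. The first was 0.23 without Fcgr2b-/- replicate 1 and 1.04 without wild-type replicate 1. Double-deficient and Fcgr2b-/- mice differed by -0.29, which was -0.76 within the first slide, 0.55 within the second and 0.14 without Fcgr2b-/- replicate 1.

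Src, the founding member of the family, went the other way from Lyn in single mice on its brighter probe. It stood at -2.84, -0.72, -0.88 and -0.98 in wild-type mice and at -2.19, -1.02, -0.82 and -0.93 in Fcgr2b-/- mice. It stood at -1.35, -2.34, -1.1 and -0.58 in double-deficient mice and at -2.14, -1.30, -0.94 and -0.96 in Sting gt/gt mice. In each genotype 1 mouse lay below the other 3, and the ranges of all genotypes overlapped. The group means ran from -1.35 to -1.24, and the difference between Fcgr2b-/- and wild-type mice was 0.11 (SE 0.50, interval -0.95 to 1.18). The second Src probe, dimmer, gave 0.05 there, and the 2 probes stood apart for Sting gt/gt against wild-type mice, at 0.02 and 0.61. In the mice lowest on the brighter probe, the dimmer probe was not the lowest of any genotype. It stood at -4.51 in wild-type replicate 1, -4.82 in double-deficient replicate 2 and -4.08 in Sting gt/gt replicate 1. In Fcgr2b-/- replicate 1 it stood at -3.21, the highest of that genotype.

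Yes1, a close relative of Src made in many tissues, stood at 1.84, 0.66, 1.03 and 1.19 in wild-type mice and at 1.68, 0.46, 0.99 and 0.90 in Fcgr2b-/- mice. It stood at 1.22, 1.30, 1.1 and 1.21 in double-deficient mice and at 1.53, 1.04, 1.13 and 0.21 in Sting gt/gt mice. The ranges overlapped, with the double-deficient mice closest to each other. The difference between Fcgr2b-/- and wild-type mice was -0.17 (SE 0.33, interval -0.86 to 0.52), which leaves out a 2-fold change in either direction. Blk, the B-cell member, lay between -7.54 and -6.24 and was well above background in 0 of the 16 mice. The B-cell marker Cd79a, the partner of Cd79b in the B-cell receptor, was likewise not well above background in any mouse, while Cd79b was in all 16.

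Syk, which docks on phosphorylated ITAMs, stood at -1.66, -3.37, -3.06 and -1.95 in wild-type mice and at 0.89, -1.99, -1.1 and 1.13 in Fcgr2b-/- mice. It stood at -2.16, -1.66, -1.51 and -1.54 in double-deficient mice and at -1.23, -2.25, -1.71 and -1.75 in Sting gt/gt mice. Fcgr2b-/- replicates 1 and 4 were above all other mice, and replicate 2 lay below the highest wild-type mice. Syk averaged 2.24 higher in Fcgr2b-/- than in wild-type mice, 4.74-fold (SE 0.59, interval 0.99 to 3.5, limma adjusted p 0.582). It averaged 1.45 lower in double-deficient than in Fcgr2b-/- mice (SE 0.59, interval -2.71 to -0.20, limma adjusted p 0.9999), and the interaction was -2.23 (SE 0.84, interval -4.00 to -0.45, limma adjusted p 0.661). The second Syk probe gave 1.37 and -1.21, but it was well above background in 1 of 4 wild-type, 3 of 4 Fcgr2b-/- and 3 of 4 double-deficient mice. Within the first slide Fcgr2b-/- and wild-type mice differed by 2.53, and within the second by 1.41. Double-deficient and Fcgr2b-/- mice differed by -2.18 within the first slide and by -0.47 within the second.

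Counted together, 0 of the 7 members tested were called between Fcgr2b-/- and wild-type mice, where 0.0505% of the 35628 probes tested were called. At an unadjusted p under 0.05 in limma, 3 members (Lyn, Fgr and Syk) were higher, against 2.64% of all probes, and 1 member, Fgr, had groups that did not overlap, against 1.24% of all probes. By any amount 6 members were higher (43.4% of all probes were) and 1, Yes1, lower, with a median of 0.98 against -0.06 over all probes. Between double-deficient and Fcgr2b-/- mice 0 members were called, as were 0.0% of all probes by limma (645 probes had an unadjusted p under 0.05). Fgr and Syk were lower there at an unadjusted p under 0.05, against 1.16% of all probes, and the median of the 7 was -0.84 against 0.06. This comparison shares the Fcgr2b-/- mice with the one before, so that mice high in that group enter both. The Mann-Whitney test after adjustment passed 0 probes in each comparison between genotypes, which says nothing about them. With 4 mice against 4 its smallest unadjusted p is 0.0286, so no probe could pass unless most probes had groups that did not overlap.

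Between double-deficient and wild-type mice the members ran from -0.05 to 1.1 with a median of 0.14, 0 were called, and 0.0% of all probes were (151 at an unadjusted limma p under 0.05). Between Sting gt/gt and wild-type mice they ran from -0.20 to 0.77 with a median of 0.54, 0 were called, and 0.0% of all probes were (1339 at an unadjusted limma p under 0.05). In the interaction 0 were called of a background of 0.0% (2234 probes at an unadjusted limma p under 0.05), and Fgr and Syk were below 0 at an unadjusted p under 0.05, against 2.66% of all probes.

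**Figure D2:**
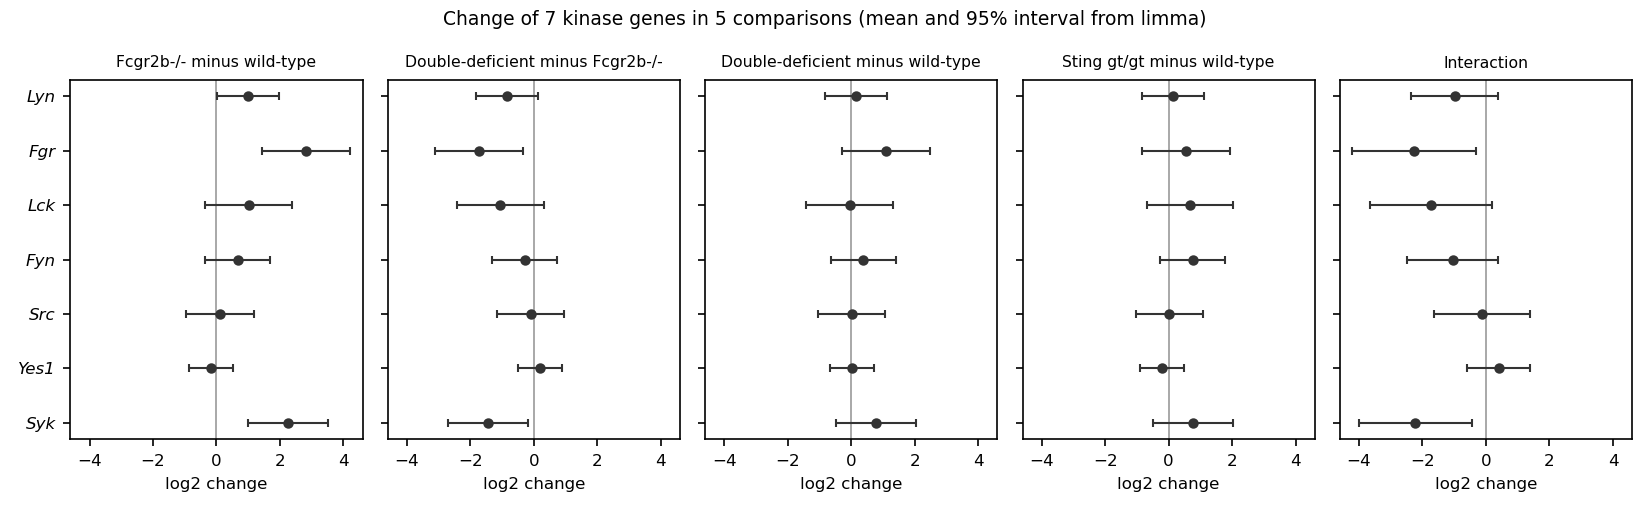
Difference of each of the 7 tested members on the log2 scale (horizontal axis) in the 5 comparisons, with points at the limma estimate and bars for its 95% interval. For Fcgr2b-/- minus wild-type the intervals of Lyn, Fgr and Syk lie above 0, the Lyn interval starting at 0.01, and no member was called after adjustment over all probes.

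The other members were compared with Lyn mouse by mouse. Against Lyn, over 16 mice, Pearson r was 0.92 for Lck (Spearman rho 0.79), 0.89 for Fgr (0.78), 0.82 for Syk (0.59), 0.81 for Fyn (0.75), 0.49 for Yes1 (0.46) and -0.64 for Src (-0.74). In all, 6 relations were tested by permuting mice within genotypes, two-sided, 100000 times, Blk being left out. The permutation p for Pearson r, Benjamini-Hochberg adjusted over the 6, was 0.00066 for Lck, 0.00108 for Src, 0.00268 for Fyn and for Fgr, 0.0260 for Syk and 0.0522 for Yes1, and the unadjusted permutation p values were 0.00011, 0.00036, 0.00179, 0.00160, 0.0217 and 0.0522 in the same order. For Spearman rho the adjusted permutation p was 0.00066 for Lck, 0.00156 for Src, 0.00794 for Fyn, 0.00799 for Fgr, 0.0852 for Yes1 and 0.0923 for Syk. All members of 1 mouse are read from the same array, kidney piece and scaling factor.

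Without the 2 mice farthest from the median of Lyn, which were Fcgr2b-/- replicates 1 and 4, r was 0.80 for Lck, 0.65 for Fyn, 0.59 for Fgr and 0.43 for Syk, 0.55 for Yes1 and -0.92 for Src. With the genotype means removed it was 0.97 for Lck, 0.91 for Fgr, 0.90 for Fyn, 0.75 for Syk, 0.70 for Yes1 and -0.81 for Src. The relations of Lyn with Syk and with Fgr therefore leaned on those 2 mice, and the relation with Src, read from its brighter probe, did not. After quantile normalization r for Fgr was 0.87 over all 16 mice and 0.47 without those 2. On the dimmer Src probe Fcgr2b-/- replicate 1 stood highest of its genotype (-3.21), and the relation of that probe with Lyn was not tested.

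**Figure D3:**
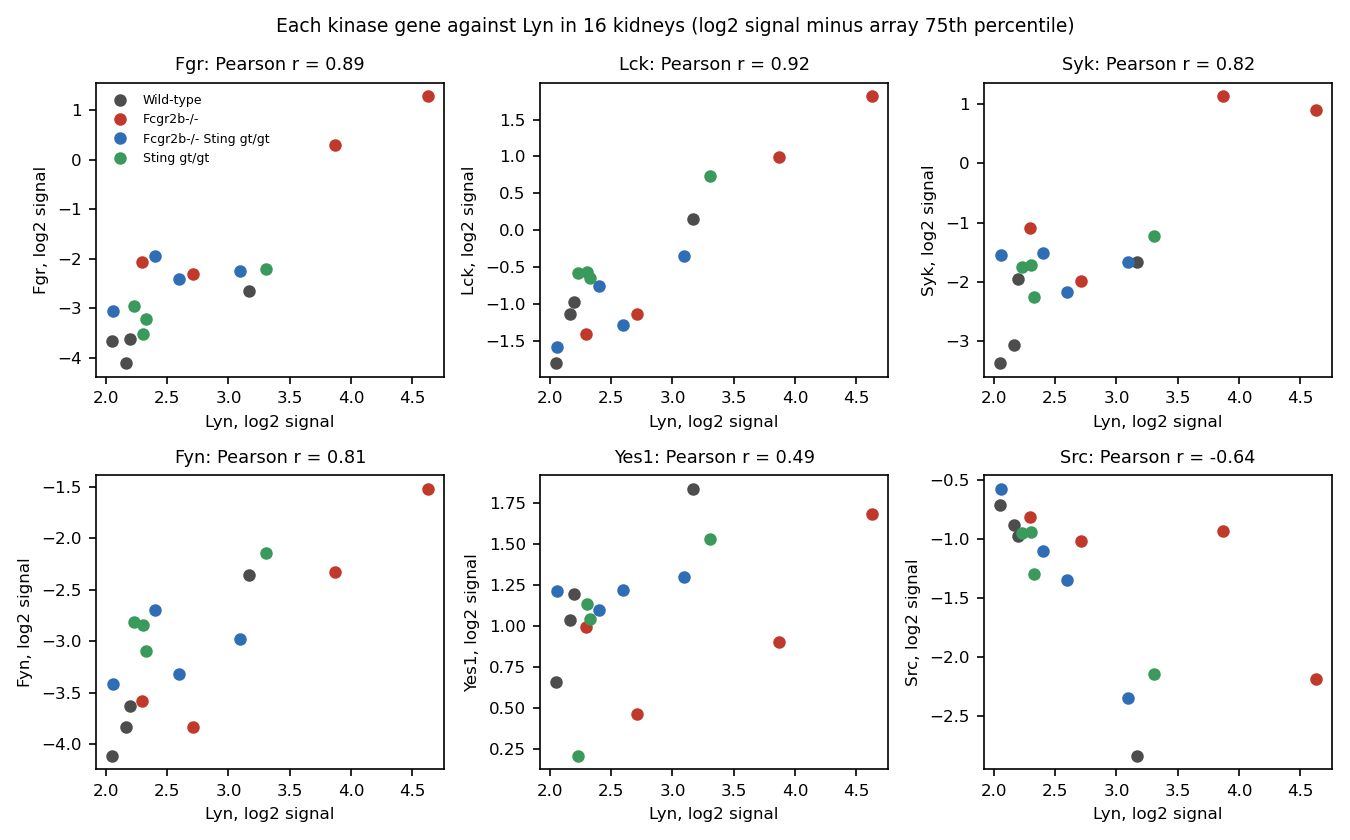
Each of 6 members (vertical axes) against Lyn (horizontal axes) in 16 kidneys, both as log2 signal minus the array's 75th percentile, colored by genotype. Fcgr2b-/- replicates 1 and 4 are the 2 points farthest right, and Src lies lowest in 1 mouse of each genotype.

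The 5 genes outside the members with the highest Pearson r to Lyn among 16383 named genes, a description without a test, were Aif1 (0.989), a macrophage protein, Cd48 (0.985), a leukocyte adhesion molecule, Plac8 (0.983), Cd52 (0.982), a small surface protein of leukocytes, and Tspan32 (0.981), a tetraspanin of blood cells. Without Fcgr2b-/- replicates 1 and 4 their r was 0.977, 0.962, 0.963, 0.972 and 0.942. In Fcgr2b-/- against wild-type mice these genes averaged 1.82, 1.49, 1.24, 1.95 and 1.01 higher, and 0 of the 5 were called. In the same order, from the highest r down, Lck had rank 193, Fgr 360, Syk 923, Fyn 991, Yes1 3487 and Src 13775.

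In each of the 4 genotypes the mouse with the highest Lyn (wild-type, Fcgr2b-/- and Sting gt/gt replicate 1, and double-deficient replicate 2) also had the highest Lck and Yes1. That mouse had the lowest level of the brighter Src probe, though not of the dimmer one. Fgr and Fyn were highest in that mouse in 3 genotypes and Syk in 2. The same mouse had the highest mean of the 5 pan-leukocyte markers (Ptprc, Coro1a, Cd53, Laptm5 and Cd52), at 1.43, 3.67, 1.47 and 1.61 in wild-type, Fcgr2b-/-, double-deficient and Sting gt/gt mice, and the highest means of the monocyte and macrophage, T-cell, dendritic-cell, NK-cell and endothelial markers. It had the lowest mean of the kidney epithelium markers in all 4, at 4.58, 4.18, 4.59 and 4.64. B-cell, plasma-cell and neutrophil markers were highest in it in 3 genotypes and platelet and megakaryocyte markers in 1. Lymph node and fat markers were highest in the same mouse in 3 genotypes, at 1.42, 1.68 and 0.97 in wild-type, Fcgr2b-/- and Sting gt/gt mice. The next highest mice of these genotypes stood at -0.90, -1.46 and 0.02. Among the double-deficient mice the mean of these markers was lowest in it, at -2.33, but the genes were split. Ccl21a (2.91) was highest in that mouse, while Glycam1 (-1.49), Adipoq (-4.19), Plin1 (-5.84) and Cfd (-3.02) were lowest in it. The part of these cell types in the levels of the members was not tested, and in whole kidney more cells of a type and more RNA per cell cannot be told apart.

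All 5 pan-leukocyte markers were higher in Fcgr2b-/- than in wild-type mice (43.4% of all probes were). All 5 were lower in double-deficient than in Fcgr2b-/- mice (42.5% of all probes were). The medians of the 5 markers were 1.95 and -1.46, and 0 were called. Their summed signal, in multiples of the 75th percentile, ran from 6.52 to 38.9 in wild-type, 15.5 to 158 in Fcgr2b-/-, 10.2 to 41.6 in double-deficient and 11.6 to 39.2 in Sting gt/gt mice. Of the 11 monocyte and macrophage markers 9 were higher in Fcgr2b-/- than in wild-type mice (43.4% of all probes were), with a median of 2.12, and 0 were called. The largest differences among them were those of Lyz2 (3.21), Adgre1 (2.56) and Cd68 (2.31). Their summed signal, led by the bright genes Ly6c2, Itgam and Csf1r, of which Ly6c2 and Itgam differed by -0.21 and -0.32, ran from 186 to 421, 237 to 370, 174 to 452 and 187 to 357 in the same order of genotypes. In the same comparison 7 of the 8 T-cell markers were higher and 1, the bright Cd4, was lower, with a median of 0.84 (43.4% of all probes were higher). Of the 6 B-cell markers tested 2 were higher and 4 lower, with a median of -0.12. In both lists 0 were called, and no defining T-cell marker was absent from every mouse. The medians of the endothelial and kidney epithelium markers were 0.18 and -0.18.

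**Figure D4:**
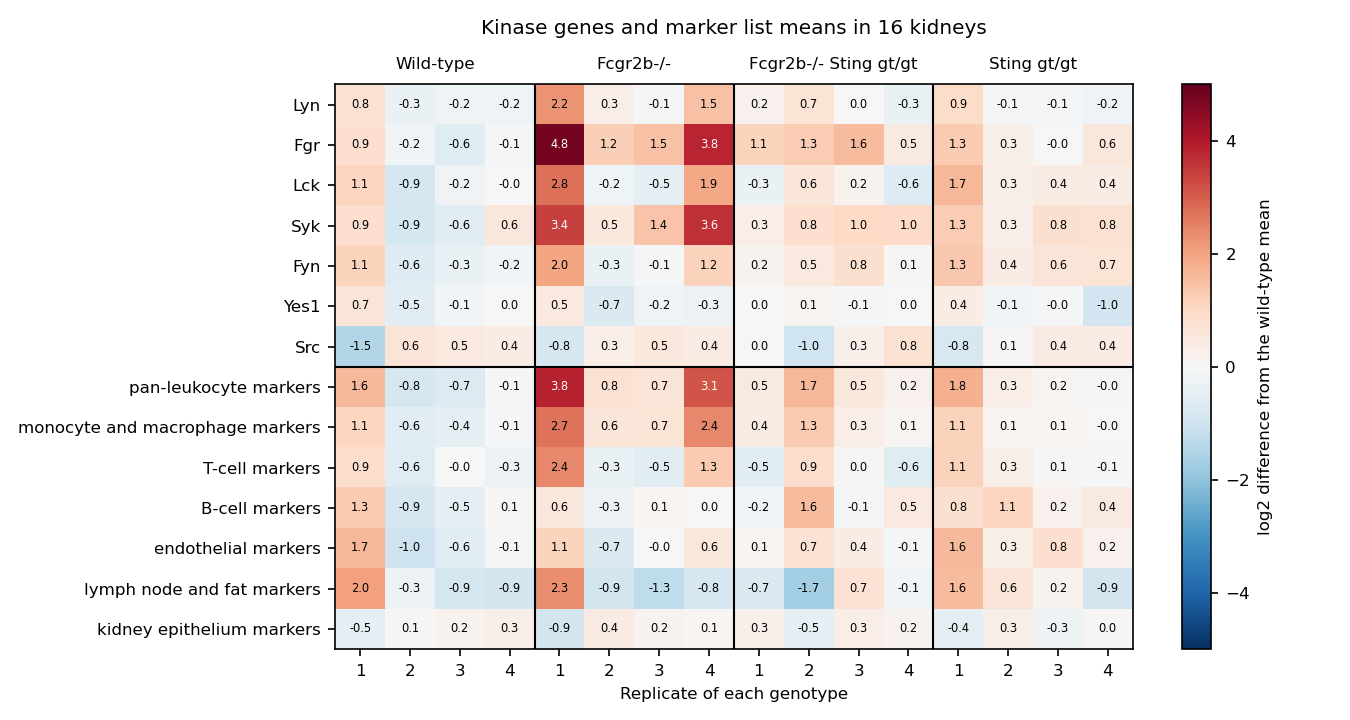
Difference from the wild-type mean (color and printed number, log2) of 7 kinase genes and of the mean of 7 marker lists (rows) in each of the 16 kidneys (columns, by genotype and replicate). Lyn, Fgr, Lck, Syk and the pan-leukocyte, macrophage and T-cell lists are darkest red in Fcgr2b-/- replicates 1 and 4, and the kidney epithelium row is pale throughout.

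Frk, a Src-type kinase of epithelial cells, differed by 0.02 between Fcgr2b-/- and wild-type mice and by -0.10 between double-deficient and Fcgr2b-/- mice, and neither difference was called.

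Of the proteins that restrain these kinases, such as Csk, the phosphatases and the Dok adaptors, 13 of 15 were tested. In Fcgr2b-/- against wild-type mice 12 were higher (43.4% of all probes were) with a median of 0.85, and 0 were called. Ptprc (CD45, the phosphatase of leukocytes, which also activates Src kinases) averaged 1.89 higher, Inpp5d (the lipid phosphatase SHIP1) 1.5 and Ptpn22 (a phosphatase of lymphocytes) 1.38. Matk, Ptpn6 and Dok1, named after their values were seen, had groups that did not overlap, as for 1.24% of all probes, with differences of 0.82, 0.85 and 1.23. Csk itself, which phosphorylates the inhibitory tail of Src kinases, differed by 0.46 (interval -0.25 to 1.17). In double-deficient against Fcgr2b-/- mice 12 of the 13 were lower (42.5% of all probes were) with a median of -0.64. Ptprc, Dok1 and Inpp5d averaged 1.15, 1.1 and 1.04 lower.

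Of the ITAM-bearing chains, 7 of 8 were tested. All 7 were higher in Fcgr2b-/- mice (43.4% of all probes were), with a median of 1.04, and 0 were called. Fcer1g, the shared chain of activating Fc receptors, averaged 2.44 higher (limma adjusted p 0.685), Tyrobp (DAP12) 2.17 and Cd79b 1.23. In double-deficient against Fcgr2b-/- mice all 7 were lower (42.5% of all probes were) with a median of -0.99. The differences of Fcer1g, Tyrobp and Cd3g were -1.54, -1.54 and -1.33.

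Of the ITIM-bearing receptors, 8 of 9 were tested, and 7 were higher in Fcgr2b-/- mice (43.4% of all probes were). The median was 0.85, and the exception was the deleted Fcgr2b at -1.45. Pirb, an inhibitory receptor of myeloid and B cells that Lyn phosphorylates, averaged 3.0 higher (SE 0.78, limma adjusted p 0.553), Cd72 2.42 and Cd300a 1.86, and 0 were called. In double-deficient against Fcgr2b-/- mice Pirb, Cd72 and Cd5 averaged 1.89, 1.67 and 1.31 lower.

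Of the 19 effectors that act after Src family kinases and Syk, all tested, 17 were higher in Fcgr2b-/- mice (43.4% of all probes were). Their median was 0.59, and 0 were called. Lcp2 (SLP-76, an adaptor) averaged 2.69 higher, Pik3ap1 (an adaptor of PI3 kinase) 2.48 and Vav1 (an exchange factor) 2.20. Pik3ap1 was well above background in 6 of 16 mice only. The kinases Btk and Zap70, activated next to Syk or in its place, averaged 1.57 and 1.22 higher, while the broadly made Plcg1 and Akt1 differed by -0.03 and 0.24. In double-deficient against Fcgr2b-/- mice 16 of the 19 were lower (42.5% of all probes were) with a median of -0.95. Lcp2, Pik3ap1 and Pik3cd averaged 1.76, 1.75 and 1.63 lower.

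**Figure D5:**
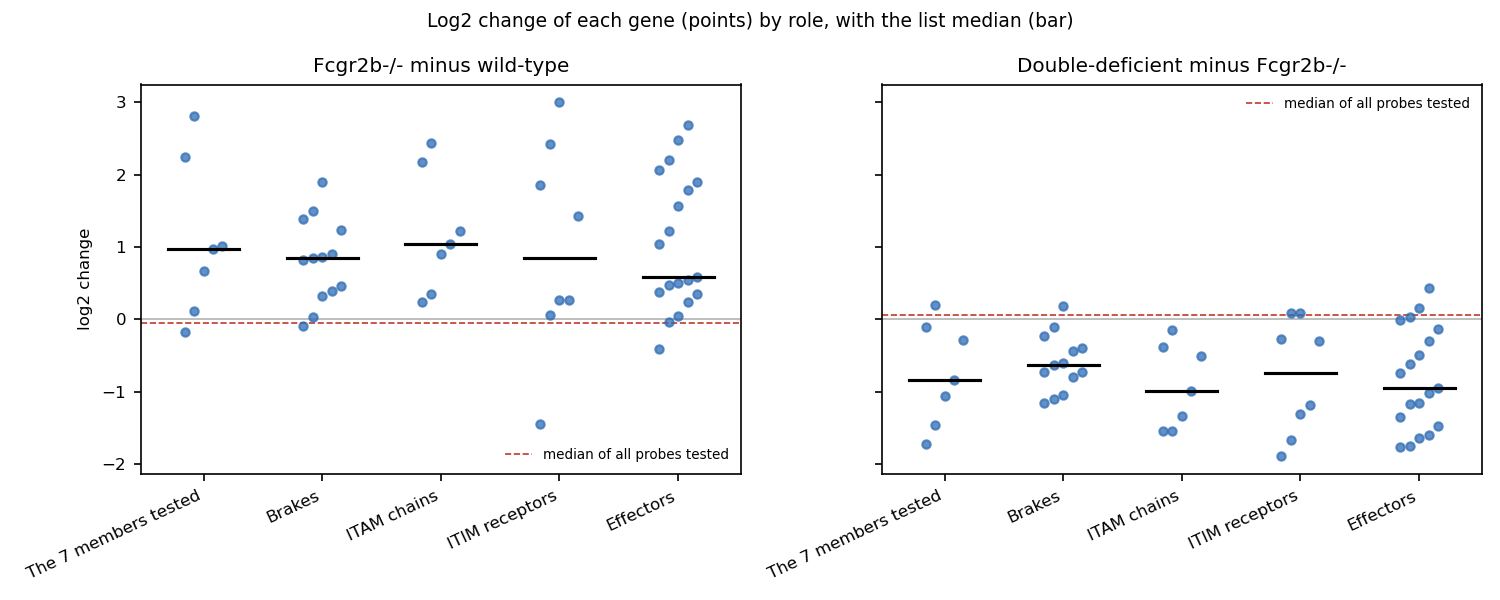
Log2 difference of each tested gene (points, vertical axis) by role in the pathway, for Fcgr2b-/- minus wild-type and double-deficient minus Fcgr2b-/-, with the list median as a bar and the median of all probes tested as a dashed line. The medians of the 5 lists lie between 0.59 and 1.04 in the first comparison and between -0.99 and -0.64 in the second, which shares the Fcgr2b-/- mice with it, and no point was called.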

How the data were processed

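Kidney RNA of 16 mice (100 ng each) was amplified, labelled with Cy3 and hybridised to one-color arrays, read with Agilent Feature Extraction 11.0 per the submitters' processing notes. The authors deposited scanner files whose processed signal is a background-corrected spot intensity with no scaling between arrays, and a table of log2 values of the same arrays whose making is not given in the sources used here.

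Control and outlier spots were left out, spots of one probe were averaged on the log2 scale, and the 75th percentile over the 56605 probes of each array was subtracted (Python 3.11.15, numpy 2.4.6, pandas 2.3.3). This sets a common brightness, so a shift shared by most probes is not seen. No spot was saturated. The number of arrays limits the precision. Probes well above background on at least 4 arrays (35628) were fitted with limma 3.58.1 (R 4.3.3, statmod 1.5.0), as 4 genotype means in 1 model of the 16 arrays, and p-values were adjusted over all of them by Benjamini-Hochberg. The study states a two-tailed Mann-Whitney test for the whole paper, which was run beside it. The fit was tested on simulated data. Correlations used scipy 1.17.1 and figures matplotlib 3.10.9. Intervals are 95% intervals of the limma estimate. Where a probe at background on a whole group would call for a bound, no tested member probe was in that case.

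Groups and replicate numbers came from the labels, each array being 1 mouse. RefSeq accessions gave 58.3% of the probes a gene symbol. Promoter windows come from RefSeq on GRCm38.p6. The genes named are the 8 members, of each pathway list any called gene and up to 3 genes with the largest absolute difference in Fcgr2b-/- against wild-type and in double-deficient against Fcgr2b-/- mice, the 5 genes most like Lyn, and the leading marker genes. Genes named besides these, for contrast or because their groups did not overlap, were chosen after their values were seen. The members and all lists were chosen with earlier results of these data known. Plasma-cell, neutrophil and platelet markers were read as well, with medians of 0.09, 1.30 and 1.00 in Fcgr2b-/- against wild-type mice.

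Alternatives were normexp background correction (on median spot signals, offset 50), quantile normalization, scaling by the median, the deposited log2 table, other filters, the groups compared alone, a trended and robust eBayes, slide, replicate number or animal label as a block, the mean over a gene's probes, no fold threshold, the Mann-Whitney test, and leaving out each mouse.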

Additional observations from a re-analysis of the deposited data

Results flagged for a closer look

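In 28 sets of 4 mice (7 members by 4 genotypes), 5 held a mouse that lay far from the other 3 by Dixon's test, which marks about 1 set in 20 by chance. The 7 members were read from the same arrays, so the sets are not independent and the count cannot be weighed against that rate. All 5 came from replicate 1 of the wild-type, Fcgr2b-/- and Sting gt/gt mice. Lyn stood at 3.17 in wild-type replicate 1 (the others between 2.05 and 2.19) and at 3.31 in Sting gt/gt replicate 1 (others 2.23 to 2.33). Lck stood at 0.73 in the same Sting gt/gt mouse (others -0.65 to -0.56). The brighter Src probe stood at -2.84 in wild-type replicate 1 (others -0.98 to -0.72) and at -2.19 in Fcgr2b-/- replicate 1 (others -1.02 to -0.82). These mice had the highest pan-leukocyte marker means of their genotypes, and the part of those cells in the levels was not tested.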

How the results depend on the processing

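No member was called under any alternative except the Mann-Whitney test without adjustment, under which 1 member (Fgr) passed for Fcgr2b-/- against wild-type. Of the Lyn values and member counts recomputed, 236 kept direction and call, and the 4 exceptions follow or stand above. Scaling by the median turned Lyn for Sting gt/gt against wild-type to -0.10, and moved the median of all probes from -0.06 to -0.21 for Fcgr2b-/- against wild-type. Leaving out 1 mouse at a time gave Lyn 0.56 to 1.34 for Fcgr2b-/- against wild-type, -1.20 to -0.42 for double-deficient against Fcgr2b-/-, -0.043 to 0.40 for double-deficient against wild-type (lowest without double-deficient replicate 2) and -0.11 to 0.41 for Sting gt/gt against wild-type (lowest without Sting gt/gt replicate 1). For Fgr it gave 2.16 to 3.35 and for Syk 1.78 to 2.82 between Fcgr2b-/- and wild-type. With slide as a block Lyn for double-deficient against Fcgr2b-/- was -0.54. The causes were not tested.

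The remaining reversals were of values near 0. Src turned for Fcgr2b-/- against wild-type to -0.043 with median scaling. For double-deficient against wild-type Src turned to -0.011 (normexp), -0.00318 (quantile), -0.11 (median scaling), -0.029 (deposited log2 table), -0.14 (slide as a block) and -0.23 (mean over probes), Yes1 to -0.092 (median scaling), and Lck to 0.094 (slide as a block) and 0.017 (animal label as a random block). For Sting gt/gt against wild-type Src turned to -0.064 (normexp), -0.0239 (quantile), -0.22 (median scaling) and -0.034 (deposited table), and in the interaction to 0.035 (normexp) and 0.16 (median scaling). Leaving out 1 mouse at a time, Src ran from -0.38 to 0.43 (Fcgr2b-/- against wild-type), -0.42 to 0.23 (double-deficient against Fcgr2b-/-), -0.48 to 0.34 (double-deficient against wild-type), -0.48 to 0.29 (Sting gt/gt against wild-type) and -0.44 to 0.37 (interaction), Yes1 from -0.40 to 0.048 in Fcgr2b-/-, -0.15 to 0.24 in double-deficient and -0.39 to 0.056 in Sting gt/gt mice (each against wild-type), Fyn from -0.63 to 0.14 (double-deficient against Fcgr2b-/-) and Lck from -0.34 to 0.31 (double-deficient against wild-type).

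The genotypes share replicate numbers in the labels, and the animal labels of Fcgr2b-/- and double-deficient replicates 3 and 4 share a first number crosswise, as do wild-type replicates 3 and 4. What that number means is not given. With it as a random block (consensus correlation 0.827) the smallest limma adjusted p over all probes for double-deficient against Fcgr2b-/- was 0.0970 in place of 0.9999, with 0 calls, and Lyn there was -0.85 (SE 0.27, limma adjusted p 0.273). The deviations of same-numbered mice correlated from -0.07 to 0.69 between Fcgr2b-/- and wild-type and from -0.48 to -0.18 between double-deficient and Fcgr2b-/- mice, so the numbers were not taken as pairs. With the replicate block Lyn was 0.98, Fgr 2.81 (limma adjusted p 0.160) and Syk 2.24 (limma adjusted p 0.222) for Fcgr2b-/- against wild-type, 0 members were called in any comparison, and 16 probes in place of 18 were called among all. Over all probes that comparison gave 5 calls with normexp, 7 with the deposited table, 3 with animal label as a random block, 0 with the groups compared alone, 0 with probes well above background on all 16 arrays, and 0 to 37 without 1 mouse. That strictest filter left out Fgr and Fyn, which were well above background on 15 of the 16 arrays. Lyn with Yes1 reached r 0.55 (permutation adjusted p 0.0234) after quantile normalization.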
